A study of Mus musculus with 16 samples.

Results

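Tumor dendritic cells were rare in 2208L mammary tumors: 128 of the 13830 tumor cells that were kept met the definition used here (73176 cells were kept in the 16 libraries of the series, of which 12 came from bone marrow and were not used here). 2208L is a Trp53-null BALB/c mammary tumor that was transplanted as pieces into wild-type female BALB/c mice, whose own immune cells infiltrate it. The 4 tumor libraries came from mice given the methylcellulose vehicle, IACS-70654 (an inhibitor of the bromodomains of the coactivators CBP and P300), anti-PD1 antibody, or IACS-70654 and anti-PD1 together (the combination). By the study's general treatment methods, IACS-70654 was given by mouth in cycles of 3 days on and 2 days off. The same methods have anti-PD1 injected into the peritoneum every 3 days, and the labels do not state that schedule for these libraries. Tumors were taken on day 7. Each library pooled viable sorted cells of collagenase-dissociated tumors from 3 mice, so that 1 library stood for each treatment and no mouse can be told apart. The labels do not give the age of the tumor-bearing mice, which the study states only for the time of transplantation. A cell was a member when it had 201 to 5999 genes, at most 10% mitochondrial unique molecular identifiers (UMIs, each of which counts 1 captured RNA molecule), and at least 3 UMIs in the sum of Flt3, Zbtb46, Xcr1, Clec9a, Cd209a and Ccr7. It also had to hold fewer than 20 UMIs of the C1q genes of macrophages, and at most 1 UMI each of the Cd3e and Cd3g pair (T cells) and the Cd79a and Cd79b pair (B cells). These 13 genes chose the members, and their values are given below as a description without a test.

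Dendritic cells take up material in a tissue, cut it into peptides and show the peptides to T cells on major histocompatibility complex (MHC) molecules. Conventional type 1 cells (cDC1) depend on the transcription factors Irf8 and Batf3 and carry cell-derived antigen to CD8 T cells, whereas conventional type 2 cells (cDC2) depend on Irf4 and Klf4 and mainly prime CD4 T cells. Either kind can mature, switch on the chemokine receptor Ccr7 and the actin-bundling protein Fscn1, and leave for the lymph node. Plasmacytoid dendritic cells (pDC) are a separate lineage, set by the transcription factor Tcf4 and marked by the surface lectin Siglech, that makes type I interferon. In mammary tumors cDC1 are known for bringing tumor antigen to the draining lymph node and for drawing in T cells.

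Throughout, values in 4 libraries are given in the order vehicle, IACS-70654, anti-PD1 and combination. The libraries held 17, 46, 24 and 41 members, or 0.861% (0.502 to 1.38%), 0.971% (0.712 to 1.29%), 1.17% (0.750 to 1.73%) and 0.810% (0.582 to 1.10%) of the kept cells, with exact 95% binomial intervals. All 4 intervals overlapped. Members held 86970, 250076, 122046 and 284682 UMIs in sum, and the median member held 4622, 5033.5, 4035.5 and 5487 UMIs. Levels of a gene are given as CPM, the UMIs of the gene divided by the summed UMIs of the members of a library and scaled to 1000000. Intervals on levels and on log2 ratios between libraries are exact 95% Poisson or conditional binomial intervals and cover counting error only. With 1 library per treatment differences between treatments were given no test, and "past 2-fold" is used as a description of size. The 4 libraries shared 0 cell barcodes. Library depth was 15590289 to 43594797 UMIs, and the median kept cell held 4724 to 6332 UMIs, more in both IACS-70654-containing libraries than in the other libraries.

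Members held rule genes of several kinds of dendritic cells, and some members went against the label. Flt3, the receptor for the growth factor of dendritic cells, was at 149, 148, 81.9 and 119 CPM in 7, 17, 6 and 16 members. Zbtb46, a transcription factor of conventional dendritic cells, was at 69.0, 44.0, 32.8 and 42.2 CPM in 5, 8, 3 and 7 members. Xcr1, the cDC1 receptor for the chemokine Xcl1, was at 333, 12, 57.4 and 10.5 CPM and was present in 5, 2, 3 and 1 members. Clec9a, which senses dead cells, was at 115, 56.0, 49.2 and 56.2 CPM. Cd209a, a lectin of cDC2 and of monocyte-derived cells, was at 425, 412, 295 and 414 CPM in 6, 21, 7 and 27 members, and Ccr7 was at 851, 944, 655 and 214 CPM in 7, 16, 13 and 10 members. Just inside the threshold, with exactly 3 UMIs of the 6 genes, stood 3, 9, 9 and 13 members, whose median Cd74 UMIs were 6, 46, 22 and 186. Just outside it, with exactly 2 UMIs, stood 8, 32, 10 and 20 cells, whose median Cd74 UMIs were 22, 27, 18.5 and 1.5. Tumor epithelial cells were those with at least 10 UMIs of epithelial markers and 0 of Ptprc, the gene of CD45. In them the sum of 3 UMIs was reached by 0 of 324, 1 of 673, 0 of 422 and 0 of 1027 cells, at median depths of 13843 to 16224 UMIs per cell. Cells with epithelial markers that also held Ptprc were left out, so these counts do not cover them. Such markers did occur in members, and 1 member of the combination held 41 UMIs of Krt8. A count of 0 among 324 cells allows a share of up to 0.926% by a limit of 3 counts, and the exact upper limit is 1.13%. These epithelial cells did not lack all 6 genes, since Zbtb46 was found in 10 of 324, 37 of 673, 29 of 422 and 60 of 1027 of them.

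Members fell into 5 classes that were set after their values were seen. The 55 Cd209a cells, which held more Cd209a than Xcr1 and Clec9a or Ccr7, were the commonest. In them Cd74, the invariant chain that guides MHC class II molecules, was found in 54 of 55 cells (lowest 0, median 153, highest 430 UMIs). Mgl2, a lectin of cDC2, was found in 33 of 55 cells (lowest 0, median 2, highest 46 UMIs). Lyz2, the lysozyme of myeloid cells, was found in 47 of 55 cells (lowest 0, median 3, highest 81 UMIs). Of the dendritic rule genes, Flt3 was found in 5 of 55 and Zbtb46 in 8 of 55 cells. Whether these cells were cDC2 or derived from monocytes was not tested. The 32 Ccr7 cells held Fscn1 in 23 of 32 cells (lowest 0, median 6, highest 34 UMIs), and Ccl22, a chemokine for regulatory T cells, in 22 of 32 cells (lowest 0, median 1.5, highest 15 UMIs). Fscn1 was at 0 in every cell of the other 3 dendritic classes. Tumor epithelial cells also held Fscn1, in 53.7, 43.5, 52.8 and 39.6% of them.

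The 10 cDC1-like cells held Xcr1 and Clec9a in every cell. Wdfy4, which cDC1 need for cross-presentation, was found in 10 of 10 cells (lowest 2, median 4, highest 17 UMIs), Naaa, a lysosomal amidase, in 10 of 10 cells (lowest 3, median 9.5, highest 22 UMIs), and Irf8 in 10 of 10 cells (lowest 3, median 11.5, highest 25 UMIs). The 20 pDC-like cells were set by at least 5 UMIs of an 11-gene pDC list with at least 1 UMI of Siglech, and 18 of them held Flt3 and 14 held Clec9a of the 6 rule genes. They held Siglech in 20 of 20 cells (lowest 3, median 6.5, highest 16 UMIs) and Tcf4 in 20 of 20 cells (lowest 2, median 8.5, highest 26 UMIs). Their Cd74 was low, in 17 of 20 cells (lowest 0, median 5, highest 24 UMIs), and Batf3 and Zbtb46 were at 0 in all 20. The last 8 members went against the label. They held T cell receptor transcripts (Trbc2 in 8 of 8 cells, Trac in 4) beside Ccr7, which naive and memory T cells also express, and Cd74 in 1 cell. The remaining 3 members could not be placed.

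**Figure D1:**
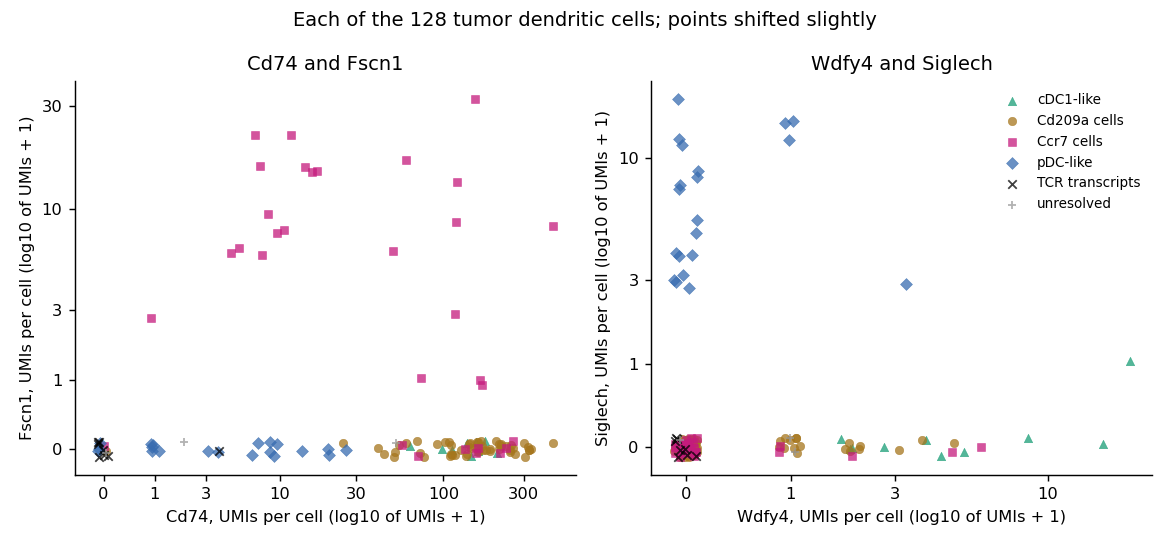
UMIs per cell, on log10(UMIs + 1) axes, of Cd74 (x) and Fscn1 (y) on the left and of Wdfy4 (x) and Siglech (y) on the right in the 128 members, 1 point per cell, coloured by class. The Fscn1-positive points are Ccr7 cells, the Siglech-rich points are pDC-like cells, and the points with the most Wdfy4 are cDC1-like cells.

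The make-up of the members varied between libraries, on few cells. cDC1-like cells numbered 4, 2, 3 and 1, or 23.5% (6.81 to 49.9%), 4.35% (0.531 to 14.8%), 12.5% (2.66 to 32.4%) and 2.44% (0.0617 to 12.9%) of the members. pDC-like cells numbered 1, 9, 1 and 9, or 5.88% (0.149 to 28.7%), 19.6% (9.36 to 33.9%), 4.17% (0.105 to 21.1%) and 22% (10.6 to 37.6%). The cDC1-like share was lower, and the pDC-like share higher, in both libraries with IACS-70654 than in both without it. Of all kept cells, cDC1-like cells were 0.203, 0.0422, 0.146 and 0.0197% and pDC-like cells 0.0507, 0.190, 0.0487 and 0.178%. The exact intervals of IACS-70654 and vehicle overlapped for both classes. Cd209a cells numbered 6, 19, 7 and 23 and made up 35.3, 41.3, 29.2 and 56.1% of the members. Ccr7 cells numbered 4, 14, 7 and 7 and made up 23.5, 30.4, 29.2 and 17.1%. T cell receptor members numbered 2, 0, 6 and 0 and were found in the libraries without IACS-70654.

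**Figure D2:**
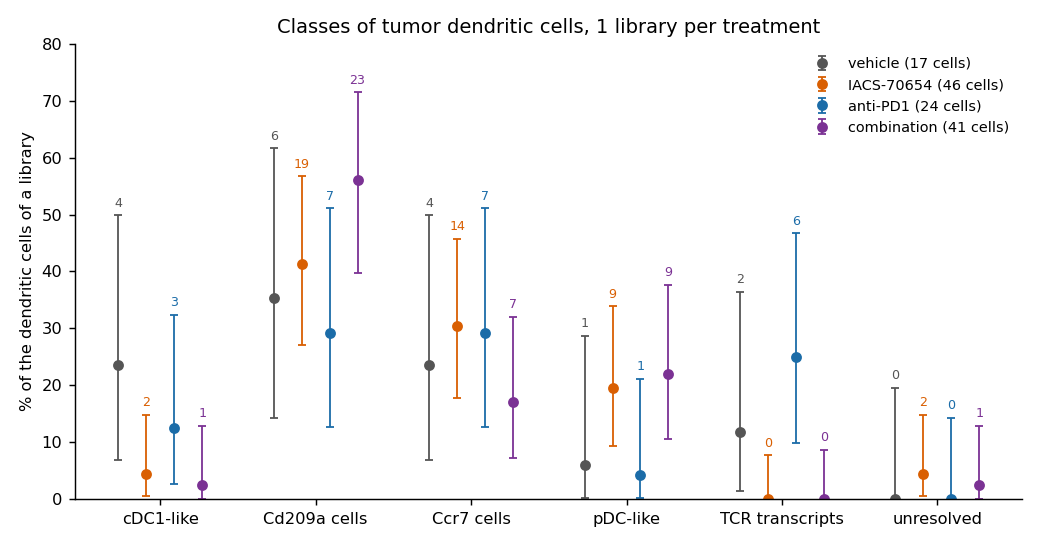
Share of the members of each library (y axis, percent) in each class, with exact 95% binomial intervals as bars and the number of cells above. pDC-like cells make up 19.6% and 22% of the members in the IACS-70654 and combination libraries and 5.88% and 4.17% in the vehicle and anti-PD1 libraries.

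Against macrophages of the same tumors, members were high in MHC class II genes and in the programs of mature dendritic cells, cDC1, cDC2 and pDC. The 6985 C1q macrophages (703, 2967, 541 and 2774 cells with at least 20 C1q UMIs) were summed per library and compared with the members in edgeR with library as a block, calling an adjusted p under 0.01 with a log2 difference over 0.5. Of 9523 genes, 366 were higher in members (3.84%) and 467 were lower (4.9%). The cells of both sums were chosen by their transcripts, so these differences describe the chosen cells, and the p-value measures how repeatable they were over 4 libraries. Of 10 MHC class II genes tested, 8 were higher and 1 was lower. H2-Aa, an alpha chain of MHC class II, was at 6692, 6610.0, 5801 and 7580.4 CPM in members and 3754, 1477, 3159 and 1616 CPM in macrophages, a log2 difference of 1.42 ± 0.20, adjusted p = 4.64e-05. Cd74 was higher by a log2 difference of 0.97 ± 0.16, adjusted p = 2.70e-04. H2-DMa, a peptide editor, did not pass (0.50 ± 0.18, adjusted p = 0.0875), and Ctss, the protease that trims the invariant chain, was lower (-1.51 ± 0.17, adjusted p = 3.27e-06). MHC class I did not follow class II: 2 of its 13 genes were higher and 1 was lower, and the median log2 difference was 0.0048.

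The mature migratory list had 18 of 24 genes higher in members. Fscn1 was at 517, 404, 483 and 144 CPM in members and 3.54, 4.25, 4.60 and 4.32 CPM in macrophages, a log2 difference of 6.21 ± 0.30, adjusted p = 2.20e-11. Ccl22 differed by 7.33 ± 0.47, Traf1, an adaptor of tumor necrosis factor receptors, by 4.63 ± 0.25, and Serpinb6b, a protease inhibitor, by 8.74 ± 0.57, all past the edgeR threshold. The cDC1 list had 8 of 13 genes higher and 1 lower. Btla, an inhibitory receptor, differed by 7.84 ± 0.55, Wdfy4 by 1.80 ± 0.29 and Irf8 by 1.27 ± 0.20, whereas Rab7b, a lysosomal GTPase, was lower (-2.01 ± 0.40). The cDC2 list had 7 of 13 genes higher and 1 lower, led by Cd7, an immunoglobulin superfamily receptor (7.1 ± 0.58), the lectin Cd209d (4.86 ± 0.52), Cbfa2t3, a transcriptional corepressor (3.99 ± 0.29), Irf4 (3.80 ± 0.55) and Mgl2 (3.50 ± 0.29), while Sirpa, a receptor for CD47, was lower (-1.75 ± 0.24). The pDC list had 5 of 6 genes higher, and Siglech differed by 6.64 ± 0.60, a value that rested on the 20 pDC-like cells.

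Chemokine genes split. Ccl17, which like Ccl22 binds the receptor CCR4, was higher in members (5.60 ± 0.30), and so was Ccl5, an attractant of T cells (3.18 ± 0.34). Ccl3 (-2.24 ± 0.40), Ccl4 (-1.22 ± 0.22), both attractants of monocytes and T cells, and Cxcl16, the ligand of CXCR6 (-0.85 ± 0.19), were lower in members. All 10 macrophage markers were lower, among them Apoe, an apolipoprotein (-5.64 ± 0.16, adjusted p = 7.21e-15), Ms4a7 (-6.13 ± 0.28, adjusted p = 1.84e-11) and Csf1r, the receptor that macrophages need to survive (-2.64 ± 0.26, adjusted p = 5.30e-07). Their summed level was 1702, 1432, 1204 and 1714 CPM in members and 44476, 59650.4, 39234 and 62183 CPM in macrophages. Lyz2 of the monocyte list was also lower (-3.69 ± 0.21). Costimulatory and coinhibitory ligands had 3 of 11 genes higher and 2 lower, and the dendritic cell transcription factors 5 of 15 higher and 3 lower. Of 23 interferon response genes 0 passed in edgeR and 0 in DESeq2, with 6 at an unadjusted p under 0.05 in edgeR. Of 12 proliferation genes and the 2 genes of CBP and P300, 0 passed in either tool, and 0 had an unadjusted p under 0.05 in edgeR. Outside the lists, the largest differences among higher genes were those of Adam23 (7.54 ± 0.64), a membrane protein, Iglc3, an immunoglobulin light chain (7.03 ± 0.62), and Klk1b27, a kallikrein (6.83 ± 0.57). Fcrls, Tmem119, Ptgs1 and Cxcl13 had 0 UMIs in the 128 members. Set against 3 UMIs over all members they were at least 31.7-fold, 17.8-fold, 17.1-fold and 11-fold lower than in macrophages. Without any filter on low counts the number of genes called was 1255 instead of 833, and it was 507 without the IACS-70654 library.

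**Figure D3:**
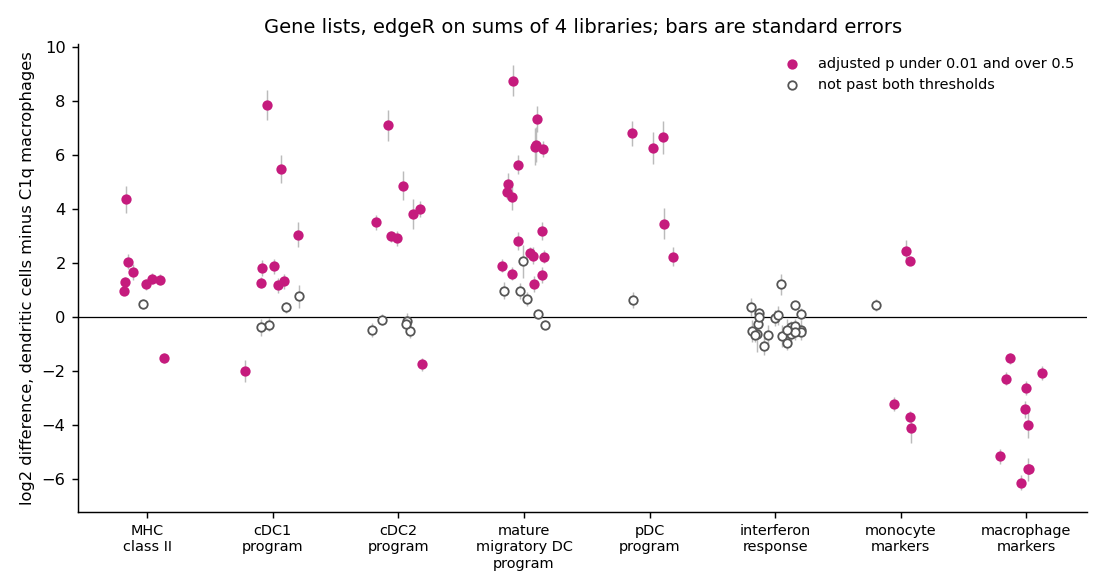
Log2 difference between members and C1q macrophages (y axis, edgeR estimate with its standard error) for the genes of 8 lists, 1 point per gene, filled where the gene passed an adjusted p of 0.01 and a log2 size of 0.5. The MHC class II and mature migratory points sit mostly above 0, the interferon response points around 0, and all 10 macrophage markers below 0.

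Against all other kept cells of the tumors, 506 of 12444 genes were higher in members (4.07%) and 680 were lower (5.46%) in edgeR. Of the lists, 10 of 11 MHC class II genes, 21 of 26 mature migratory genes, 8 of 11 pDC genes, 8 of 13 cDC1 genes and 8 of 14 cDC2 genes were higher. Macrophage markers were lower in 9 of 10 cases and tumor epithelial markers in 5 of 6. Outside the lists Cd209c, a relative of Cd209a (6.39 ± 0.94), and the septin gene Sept3 (6.34 ± 0.69) were among the genes with the largest differences. The number of genes called was 629 in DESeq2 and 479 without the library block, and 765 without the IACS-70654 library, in place of 1186. When the pDC-like and T cell receptor members were left out, Siglech turned from higher to lower in members, at a log2 difference of -2.41. Siglech set the pDC-like class, so this turn follows from leaving that class out.

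Within the members, those led by Xcr1 and Clec9a (21 cells, of which 10 were cDC1-like and 11 pDC-like), by Cd209a (60 cells) and by Ccr7 (40 cells, of which 32 were the Ccr7 class and 8 the T cell receptor members) were summed per library and compared in edgeR. Of 637 genes, 10 were higher in Xcr1/Clec9a-led cells than in Cd209a-led cells (1.57%) and 25 were lower (3.92%). Irf8 was at 2087, 2053, 1871 and 2103 CPM in Xcr1/Clec9a-led cells and 73.5, 288, 112 and 238 CPM in Cd209a-led cells, a log2 difference of 3.48 ± 0.32, adjusted p = 3.75e-05. Mpeg1, a pore-forming protein of phagocytes (2.97 ± 0.60), Ccl4 (2.16 ± 0.35) and Bst2, an interferon-inducible tether and pDC antigen (1.91 ± 0.40), were higher too. Ccl4 was at 3172, 3248, 9874 and 785 CPM in pDC-like cells and 152, 223, 0 and 0 CPM in cDC1-like cells, and Bst2 turned to a log2 difference of -0.94 without the pDC-like and T cell receptor members. In that setting only the vehicle sum of Xcr1/Clec9a-led cells, with 4 cells, was large enough to be used. Lower were Mgl2 (-6.37 ± 1.26), the membrane proteins Tmem176a (-4.87 ± 0.53) and Tmem176b (-5.25 ± 0.56), the cytokine subunit Ltb (-3.82 ± 0.68), Lyz2 (-2.87 ± 0.42) and Ctss (-2.41 ± 0.29). S100a4, a calcium-binding protein, and the chemokine Ccl6 had 0 UMIs in Xcr1/Clec9a-led cells. Without the vehicle, IACS-70654 or anti-PD1 library 19, 9 and 22 genes were called in place of 35.

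Ccr7-led cells differed from the mean of the other subsets in 65 of 637 genes, 37 higher (5.81%) and 28 lower (4.4%). Fscn1 was at 1969.7, 1048, 851 and 702 CPM in Ccr7-led cells and at 0 in both other subsets of every library. Ccl5 was at 1707, 6908, 6826 and 3747 CPM against 0, 132, 58.5 and 44.8 and 0, 199, 0 and 199 CPM, a log2 difference of 5.79 ± 0.40, adjusted p = 2.33e-06. Traf1 (3.79 ± 0.52), the membrane protein Tmem123 (3.36 ± 0.45), the tetraspanin Cd63 (5.01 ± 0.50), the fatty acid carrier Fabp5 (4.35 ± 0.46), the adaptor Samsn1 (2.14 ± 0.45) and Id2, an inhibitor of E proteins (1.53 ± 0.27), were also higher. Lower were the chemokine receptor Ccr2 of monocytes and their descendants (-6.72 ± 0.86), Ccl4 (-6.27 ± 0.56), Naaa (-4.11 ± 0.56) and the peptide editors H2-DMa (-1.96 ± 0.34) and H2-DMb1 (-2.30 ± 0.47). Sums held as few as 4 cells. Without the IACS-70654 or the combination library 18 and 43 genes were called in place of 65. Without the pDC-like and T cell receptor members, Xcr1/Clec9a-led cells numbered 4, 2, 3 and 1. Only the vehicle sum then reached the minimum of 4 cells. With 1 sum in that subset, the setting cannot show how repeatable either comparison was, and no calls are given.

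The 32 Ccr7 cells were not uniform. Cd74 was under 20 UMIs in 2, 6, 4 and 2 of them and at 50 UMIs or more in 2, 8, 3 and 5, with 0 cells between. Fscn1 was present in 13 of the 14 cells low in Cd74 and in 10 of the 18 high in Cd74, at medians of 9 and 1 UMIs. Ccl5 had medians of 46.5 and 3.5 UMIs and Ccr7 of 12.5 and 8.5 UMIs, although the cells low in Cd74 held fewer UMIs in all (median 4694.5 against 6326). Both kinds were found in every library. The cells were split after their values were seen, and this difference was given no test. Cells that also held neutrophil or tumor epithelial transcripts were counted in both kinds, and 4, 13, 4 and 5 Ccr7 cells remained without them. Among these marked cells, 1 with 25370 UMIs (IACS-70654) and 1 with 22766 UMIs (combination) were high in Cd74. Another, with 11489 UMIs (anti-PD1), held 0 UMIs of Cd74 and of Fscn1. Il12b, a subunit of interleukin-12 and interleukin-23, was found in 14 of the 32 cells with 268 UMIs in all, and 198 of these were in 1 cell of the IACS-70654 library.

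The cDC1 program was lower in members of both libraries with IACS-70654. Its summed level was 4335, 1959, 2155 and 1542 CPM, with log2 ratios of -1.15 (-1.34 to -0.95) for IACS-70654 against vehicle and -0.48 (-0.71 to -0.26) for the combination against anti-PD1. The vehicle library thus stood above all others. The interval of anti-PD1 (1902 to 2432 CPM) overlapped that of IACS-70654 (1790 to 2141 CPM). Of its 10 genes with at least 50 UMIs in members, 6 had both libraries with IACS-70654 below both without it, against 15.7% of all 2498 genes with that many UMIs, and 0 had both above, against 26.7%. Wdfy4 was at 402, 72.0, 254 and 123 CPM, with log2 ratios of -2.48 (-3.39 to -1.62) and -1.05 (-1.79 to -0.30). Naaa was at 678, 164, 188 and 91.3 CPM, with log2 ratios of -2.05 (-2.66 to -1.45) and -1.05 (-1.91 to -0.17). Of the 31 Wdfy4 UMIs of the anti-PD1 library 16 were in 1 cell. Without the cell that held most of the gene in each library, Wdfy4 was at 231, 57.2, 125 and 105 CPM and Naaa at 475, 124, 109 and 75.8 CPM, with log2 ratios for the combination against anti-PD1 of -0.25 (-1.20 to 0.75) and -0.52 (-1.58 to 0.60), and the groups overlapped for Naaa. Batf3 was at 195, 84.0, 98.3 and 77.3 CPM, Id2 at 770.4, 416, 533 and 232 CPM and Ifi205, an interferon-inducible gene of the cDC1 list, at 207, 36.0, 139 and 73.8 CPM, each lower in both libraries with IACS-70654. Without the top cell of each library, Batf3 was at 136, 65.5, 34.97 and 60.9 CPM, lowest in anti-PD1. Leaving out 1 cell takes a larger part from the vehicle and anti-PD1 sums, which held fewer members. Irf8 was at 1012, 852, 426 and 467 CPM, and its libraries overlapped between the groups. Past 2-fold lower were 7 of the 10 genes for IACS-70654 against vehicle (5.2% of all genes) and 4 of the 10 for the combination against anti-PD1 (5.28% of all genes). For anti-PD1 against vehicle 4 of the 10 were past 2-fold lower (9.33% of all genes) and 0 past 2-fold higher (12% of all genes). The median log2 ratio of the 10 genes for anti-PD1 against vehicle was -0.92. The number of cDC1-like cells (4, 2, 3 and 1) moved with these sums. In the cDC1-like cells alone the program was at 8871, 6316, 8049.7 and 6420.2 CPM, with log2 ratios of -0.49 (-0.86 to -0.14) and -0.33 (-0.93 to 0.24). In the Cd209a cells alone it was at 1249, 638, 1038 and 850.2 CPM, with log2 ratios of -0.97 (-1.60 to -0.32) and -0.29 (-0.82 to 0.28). The log2 ratios of Wdfy4 there were 0.28 and 0.39. They came from 2, 9, 3 and 18 UMIs, under the minimum of 50 UMIs, and are not read as a direction. The point values of the program were thus lower in both libraries with IACS-70654 within both of these classes. The interval of the combination against anti-PD1 reached 0 in both. In Cd209a cells only 1 of the 15 genes of the list had at least 50 UMIs, and the combination held 1 cDC1-like cell. Over all members, a lower sum from fewer cDC1-like cells and a lower level per cell cannot be told apart with 10 such cells.

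The pDC program was higher in members of both libraries with IACS-70654. Its summed level was 437, 1288, 483 and 1265 CPM, with log2 ratios of 1.56 (1.07 to 2.08) and 1.39 (0.99 to 1.81). Of its 5 genes with at least 50 UMIs, 4 had both libraries with IACS-70654 above both others (26.7% of all genes). Siglech was at 80.5, 284, 24.6 and 235 CPM, with log2 ratios of 1.82 (0.70 to 3.18) and 3.26 (1.65 to 5.57). Tcf4 was at 126, 372, 139 and 488 CPM, and Runx2, a transcription factor of pDC and of bone-forming cells, at 34.5, 176, 49.2 and 218 CPM. Klk1, a kallikrein of the list, was at 34.5, 144, 188 and 130.0 CPM and overlapped. Of the 7, 71, 3 and 67 Siglech UMIs in members, pDC-like cells held 6, 71, 3 and 67. The rule took in only some of the cells of this kind. Over all kept cells, 17, 59, 15 and 50 held at least 3 UMIs of Siglech and 5 of the pDC list, which is 0.861, 1.24, 0.731 and 0.987% of the kept cells, and 1, 9, 1 and 9 of them were members. Among these Siglech cells the share that entered the members was 5.88, 15.3, 6.67 and 18%, Flt3 was at 91.9, 140.3, 93.7 and 145 CPM and Clec9a at 46.0, 80.7, 41.7 and 80.1 CPM. Flt3 and Clec9a are genes of the rule, so they also set which Siglech cells became members. The exact intervals of the vehicle and IACS-70654 libraries, and of the anti-PD1 and combination libraries, overlapped for the share of Siglech cells, for the share that entered and for both genes.

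The mature migratory program was lowest in the combination library. Its summed level was 5588, 7774, 8366 and 3246 CPM, with log2 ratios of 0.48 (0.33 to 0.62) for IACS-70654 against vehicle and -1.37 (-1.50 to -1.24) for the combination against anti-PD1. The medians of the log2 ratios over its 20 genes with at least 50 UMIs were -0.23 and -0.95, so the sum and the median differed in sign for IACS-70654 against vehicle. Ccl5 held 691 of the 1944 UMIs of the sum in the IACS-70654 library, and without Ccl5 the ratios of the sum were -0.037 (-0.19 to 0.12) and -0.94 (-1.10 to -0.77). Of its 20 genes with at least 50 UMIs, 7 had both libraries with IACS-70654 below both without it (15.7% of all genes) and 0 had both above (26.7% of all genes). For the combination against anti-PD1, 9 of 20 were past 2-fold lower and 1 was past 2-fold higher (5.28% and 11.2% of all genes). Fscn1 was at 517, 404, 483 and 144 CPM, and Cacnb3, a calcium channel subunit of mature dendritic cells, at 172, 172, 156 and 38.6 CPM. Both were lowest in the combination. Cd83, which keeps MHC class II at the cell surface, was at 575, 456, 385 and 225 CPM, Relb, the NF-kB subunit needed for maturation, at 230.0, 152, 172 and 84.3 CPM, and Traf1 at 299, 148, 287 and 123 CPM. Relb and Traf1 were lower in both libraries with IACS-70654. Without the top cell of each library Relb was at 183, 139, 130 and 71.6 CPM, and its groups overlapped. Serpinb6b was at 184, 96.0, 328 and 35.1 CPM, with log2 ratios of -0.94 (-1.91 to 0.072) and -3.22 (-4.39 to -2.20), and Serpinb9, an inhibitor of granzyme B, was at 264, 84.0, 90.1 and 52.7 CPM. Il4i1, an oxidase of aromatic amino acids that dampens T cells, was at 126, 308, 197 and 10.5 CPM and was high in the IACS-70654 library and low in the combination. Il12b was at 241, 936, 57.4 and 70.3 CPM, where 1 cell held 198 of the 234 UMIs of the IACS-70654 library. The share of Ccr7 cells among members was also lowest in the combination, at 17.1%. In the Ccr7 class alone Fscn1 was at 2463, 1048, 1384 and 702 CPM and Ccl22 at 493, 508, 375 and 325 CPM. In the combination library 1 of its 7 cells held 39.0% of the UMIs of the class. Without the members marked by S100a8 and S100a9 or by tumor epithelial transcripts (4, 13, 4 and 5 cells remained), Fscn1 was at 2463, 1408, 1593 and 1499.9 CPM and Ccl22 at 493, 479, 63.7 and 487 CPM in the class. Fscn1 was then not lowest in the combination.

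The direction of MHC class II genes in members depended on which cells were summed. Their summed level was 34437, 36825, 33938 and 40997 CPM in members, with log2 ratios of 0.10 (0.037 to 0.16) and 0.27 (0.22 to 0.32), and 25720, 13003, 22419.6 and 13681 CPM in C1q macrophages, with log2 ratios of -0.98 (-0.99 to -0.97) and -0.71 (-0.72 to -0.70). In macrophages both libraries with IACS-70654 were below both others, and in members both were above both others. Without the T cell receptor members, which held 14 class II UMIs in the vehicle library and 8 in the anti-PD1 library, the members' sums were 36179.8, 36825, 43336 and 40997 CPM, with log2 ratios of 0.025 (-0.034 to 0.086) and -0.080 (-0.13 to -0.029), and anti-PD1 was highest. Without the pDC-like members as well they were 37920.2, 43419, 44323 and 52623 CPM, and the groups overlapped. In Cd209a cells the log2 ratios were 0.21 (0.13 to 0.30) and -0.20 (-0.27 to -0.14). The difference between members and macrophages in this respect was not tested. H2-Aa was at 6692, 6610.0, 5801 and 7580.4 CPM in members and 3754, 1477, 3159 and 1616 CPM in macrophages. Cd74 was at 15879, 18710.3, 16412 and 19776 CPM in members and 11536, 6363, 10128 and 6572 CPM in macrophages. Ctss was at 736, 1228, 942 and 1293 CPM in members, higher in both libraries with IACS-70654. Of the 9 MHC class II genes with at least 50 UMIs in members, 3 had both libraries with IACS-70654 above both others (26.7% of all genes) and 0 had both below (15.7%), so the share above was near that of all genes. The medians of their log2 ratios were -0.018 for IACS-70654 against vehicle and 0.31 for the combination against anti-PD1, beside medians of 0.061 and 0.13 over all genes. The share of Cd209a cells, the class with the highest class II level (summed 50764, 58896, 71575 and 62204 CPM), was also higher in both libraries with IACS-70654.

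Within MHC class I, the heavy chains H2-K1 and H2-D1 differed in direction from Psmb8 and Psmb9, and the list as a whole stood near all genes. H2-K1, a heavy chain of MHC class I, was at 1196, 2147, 1745 and 1767 CPM, with log2 ratios of 0.84 (0.54 to 1.16) and 0.018 (-0.22 to 0.26). H2-D1, another classical heavy chain, was at 3059, 4407, 3802 and 4422 CPM, with log2 ratios of 0.53 (0.33 to 0.73) and 0.22 (0.063 to 0.37). H2-K1 and H2-D1 had both libraries with IACS-70654 above both others, although the combination and anti-PD1 differed by less than the counting error for H2-K1. Of the immunoproteasome subunits, which cut peptides for class I, Psmb8 and Psmb9 went the other way. Psmb8 was at 1322, 719.8, 1114 and 745 CPM, with log2 ratios of -0.88 (-1.22 to -0.53) and -0.58 (-0.90 to -0.26), and Psmb9 was at 770.4, 368, 483 and 327 CPM, with log2 ratios of -1.07 (-1.54 to -0.59) and -0.57 (-1.05 to -0.069). Psmb10, the other subunit, was at 161, 179.9, 188 and 155 CPM and overlapped. B2m, the light chain, was at 1874, 2231, 2434 and 2252 CPM and overlapped. The list held 3 genes above and 2 below among its 10 with at least 50 UMIs, close to the 26.7% and 15.7% of all genes. Its summed level was 9636, 11169, 10979.5 and 10946 CPM in members and 9324, 12406, 8700.5 and 12899 CPM in macrophages.

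Among transcription factors, Cebpb and Klf4 were higher in members of both libraries with IACS-70654. Klf4, a factor of cDC2, was at 34.5, 419.9, 295 and 492 CPM, with log2 ratios of 3.61 (2.02 to 5.91) and 0.74 (0.20 to 1.31). Cebpb, a factor of myeloid cells, was at 184, 548, 336 and 871 CPM, with log2 ratios of 1.57 (0.82 to 2.42) and 1.37 (0.89 to 1.89). Zeb2, which pDC and cDC2 need, was at 92.0, 188, 49.2 and 256 CPM and Nfil3, which acts upstream in the cDC1 lineage, at 92.0, 132, 73.7 and 126 CPM, and both were also higher. Of the 12 factors measured, 5 had both libraries with IACS-70654 above the others (26.7% of all genes) and 4 had both below (15.7% of all genes, Id2, Batf3 and Relb, given above, among them). Spi1, the master factor of myeloid cells, was at 322, 288, 377 and 295 CPM and was lower by less than 2-fold. Crebbp and Ep300, which encode the CBP and P300 targets of the inhibitor, were at 103, 172, 188 and 158 CPM and 69.0, 88.0, 73.7 and 56.2 CPM, and neither had its groups apart.

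The summed level of chemokine and cytokine genes was higher for IACS-70654 against vehicle and lower for the combination against anti-PD1. The sum was 4013, 7894, 8579 and 5276 CPM, with log2 ratios of 0.98 (0.81 to 1.14) and -0.70 (-0.82 to -0.59). The medians of the log2 ratios over its genes with at least 50 UMIs were 1.95 and 0.29, so the sum and the median had opposite signs for the combination against anti-PD1. Without Ccl5 the ratios of the sum were 0.53 (0.35 to 0.71) and -0.10 (-0.25 to 0.043). Ccl5 was at 448, 2763, 3884 and 903 CPM and was high in the IACS-70654 and anti-PD1 libraries, where 1 cell each held 275 of 691 and 308 of 474 UMIs. Of the 257 UMIs in the combination, 180 were in 1 cell. Ccl17 was at 46.0, 348, 41.0 and 597 CPM, with log2 ratios of 2.92 (1.51 to 4.83) and 3.87 (2.61 to 5.51), and was found in 2, 13, 4 and 15 members. Ccl4 was at 241, 1028, 279 and 379 CPM and Cxcl16 at 333, 488, 254 and 337 CPM. For these 3 genes both libraries with IACS-70654 were above both others, although Cxcl16 in the combination and in vehicle differed by less than the counting error. They were 3 of the 11 genes of the list with at least 50 UMIs, near the 26.7% of all genes with both above. Both were below for 1 of the 11, beside 15.7% of all genes. Il1b, which encodes interleukin-1 beta, was at 2196, 1604, 3122 and 2030.3 CPM, with both below. Cxcl10, an interferon-induced attractant of CXCR3 T cells, was at 0, 112, 434 and 351 CPM, with 0 UMIs in the vehicle members. It was found in 0, 4, 5 and 5 members. In the IACS-70654, anti-PD1 and combination libraries 1 cell each held 23, 38 and 71 of its UMIs. Without the top cell of each library Cxcl10 was at 0, 20.4, 127 and 104 CPM.

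Interferon response genes showed no single direction. Of 12 with at least 50 UMIs, 4 had both libraries with IACS-70654 above (26.7% of all genes) and 1 had both below (15.7%), while 5 had both libraries with anti-PD1 above (15.5% of all genes) and 1 had both below (16.2%). Isg15, a ubiquitin-like modifier, was at 356, 264, 516 and 334 CPM and was lower in both libraries with IACS-70654. Irf7, the factor that amplifies type I interferon, was at 299, 312, 270.4 and 218 CPM, and Bst2 at 621, 639.8, 467 and 706 CPM. The checkpoint ligand Cd274 (PD-L1) was at 195, 96.0, 172 and 98.4 CPM and Cd86, a costimulatory ligand of CD28, at 494, 419.9, 499.8 and 376 CPM. Of 5 such ligands, 3 had both libraries with IACS-70654 below (15.7% of all genes) and 1 had both above (26.7% of all genes). Proliferation genes were lower too: Pclaf, a partner of the replication clamp, was at 391, 0, 147 and 42.2 CPM, Pcna, the clamp itself, at 149, 79.98, 107 and 63.2 CPM, and Top2a, a topoisomerase of dividing cells, at 115, 4.00, 156 and 80.8 CPM. Top2a was found in 3, 1, 2 and 3 cells, and 13 of its 23 UMIs in the combination were in 1 cell. All 3 measured proliferation genes had both libraries with IACS-70654 below both others (15.7% of all genes). Of the 115 UMIs of proliferation genes in the vehicle members, 97 were in the 4 cDC1-like cells.

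**Figure D4:**
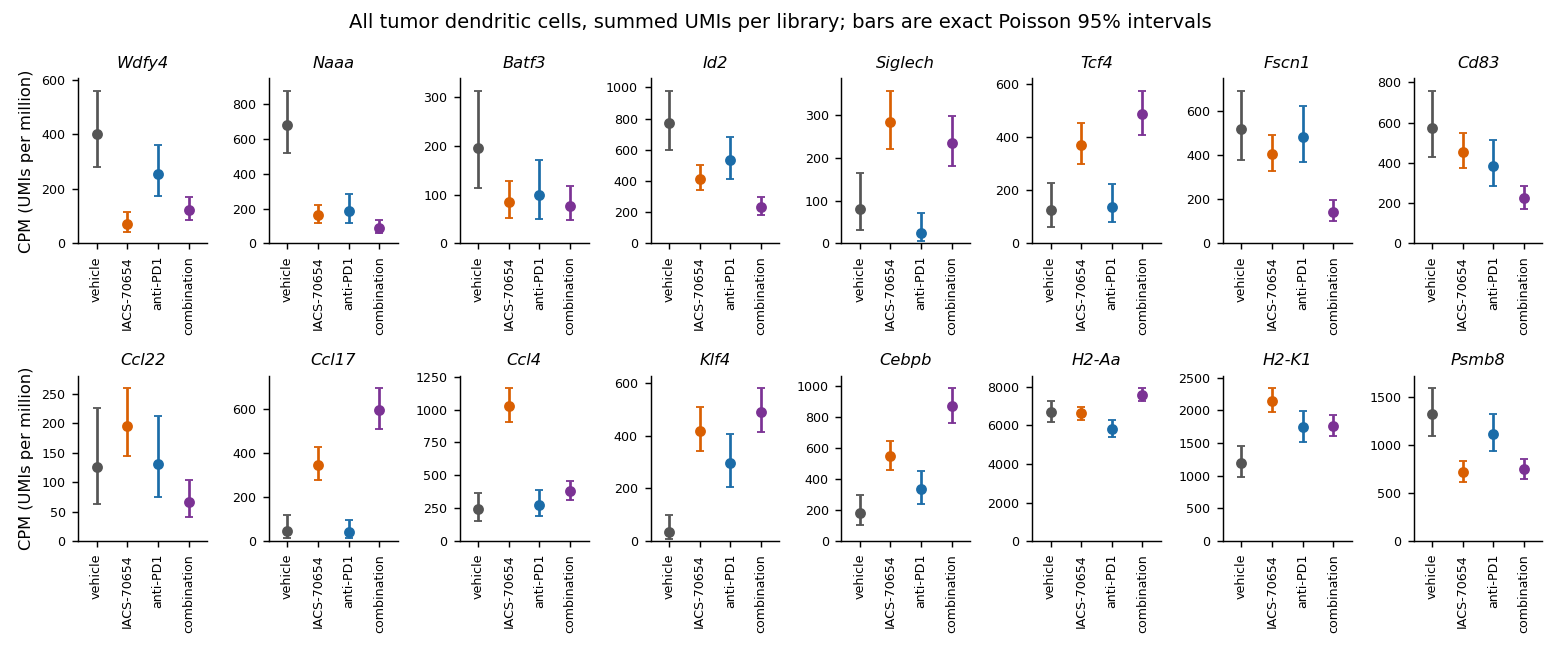
Level of 16 genes in the summed members of each library (y axes, CPM), with exact 95% Poisson intervals as bars that cover counting error only. Wdfy4, Naaa and Batf3 are lower, and Siglech, Tcf4, Klf4, Cebpb and Ccl17 higher, in both libraries with IACS-70654 than in the vehicle and anti-PD1 libraries. Batf3 and Naaa overlapped once the cell with most of the gene was left out of each library.

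Leaving out the cell that held most of a gene in each library, a check chosen after seeing the data, kept 26 of 29 list genes above and 16 of 25 below. That cell was a larger part of the 17 and 24 members of vehicle and anti-PD1 than of the 46 and 41 members of IACS-70654 and the combination. The check thus tends to keep genes above and to lose genes below. Among genes that had overlapped, H2-Aa, B2m and Mgl2 moved to above and Apoe to below. Batf3, Naaa, Fscn1, Cd86, Relb, Il1b, Cd68, Fn1 and G0s2 no longer had both libraries with IACS-70654 below, and Lgals9, Lcn2 and Krt7 no longer had both above. Over all 2498 genes, those with the largest ratio of mean levels among genes higher in both libraries with IACS-70654 included 9 reported here, Cxcl1, Wfdc2, Ccl17, Tgfbr1, Cacna1e, Romo1, Tm4sf1, Blnk and Atp1b1, at log2 ratios from 5.69 down to 2.38. They were ranked on the values that chose them, so these ratios are a description. Tgfbr1, a receptor for transforming growth factor beta, was at 23.0, 99.97, 8.19 and 98.4 CPM in 2, 14, 1 and 14 members. Blnk, an adaptor used by B cells and pDC, was at 69.0, 184, 8.19 and 225 CPM in 1, 13, 1 and 12 members. Without the pDC-like and T cell receptor members, Tgfbr1 was at 12.8, 81.0, 0 and 54.9 CPM and Blnk at 0, 47.7, 10.8 and 13.7 CPM, while Cacna1e and Atp1b1 were no longer apart. Cxcl1, a neutrophil attractant, had 0, 26, 1 and 91 UMIs, of which 71 of the 91 in the combination were in 1 cell. Wfdc2, an epithelial secreted protein, had 25 of the 26 UMIs of the IACS-70654 library and 116 of the 162 UMIs of the combination in 1 cell each, and Tm4sf1, a tetraspanin-like protein, 55 of 61 and 60 of 103. When members with at least 10 UMIs of S100a8 and S100a9 or 3 UMIs of the tumor epithelial markers (the marked members) were left out, 17, 45, 19 and 34 members remained. Of the 9 genes, 7 stayed apart, and 4 of 9 did so in the Cd209a cells alone. Of all genes with at least 50 UMIs in Cd209a cells, 22% had both libraries with IACS-70654 above. Cxcl1 had 0, 2, 0 and 15 UMIs there, Tgfbr1 0, 8, 0 and 9 and Blnk 0, 2, 0 and 3, all under that minimum. No share over all genes was computed without the marked members. Without the marked members Wfdc2 turned around, with log2 ratios of -1.37 and -1.98.

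The 10 genes with the largest ratio in the other direction were Pclaf, G0s2, Epsti1, Ly6a, Serpinb6b, Ncoa7, Naaa, Wdfy4, Gramd3 and Top2a, at log2 ratios from -3.68 to -1.67. Epsti1, an interferon-inducible gene, was at 345, 68.0, 655 and 126 CPM and Ly6a, the surface protein Sca-1, at 391, 88.0, 229 and 59.7 CPM. Ncoa7, an oxidation resistance protein, was at 356, 60.0, 90.1 and 56.2 CPM. G0s2, an inhibitor of lipolysis that neutrophils also hold, had all 45 of its vehicle UMIs in 1 cell. That cell was not among the marked members, so the separation of G0s2 rested on 1 cell. All 10 stayed apart without the marked members, and 1 of 10 did in the Cd209a cells alone. Of all genes with at least 50 UMIs in Cd209a cells, 24.8% had both libraries with IACS-70654 below. The 1 gene, Pclaf, had 5, 0, 5 and 2 UMIs there, under that minimum.

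For anti-PD1, the 5 genes with the largest ratio among those higher in both libraries that contained it were Epb41l4a, Igfbp5, Cldn3, Auts2 and S100a9, at log2 ratios from 5.38 to 3.80. Cldn3 is a tight junction protein of epithelia and S100a9 a calcium-binding protein of neutrophils, and 0 of the 5 stayed apart once the marked members were left out or in the Cd209a cells alone, while 4 of 5 did without the pDC-like and T cell receptor members. Lower were Il12b (-3.21), Igkc, an immunoglobulin light chain (-2.42), Tbc1d4, a Rab regulator of mature dendritic cells (-1.96), Gyg, which starts glycogen chains (-1.81), and Nostrin, a trafficking protein (-1.52). All 5 stayed apart without the marked members, 4 of 5 did without the pDC-like and T cell receptor members, where Igkc was at 0 in every library, and 1 of 5 did in the Cd209a cells alone. That gene, Tbc1d4, had 7, 7, 0 and 5 UMIs there. Shares over all genes were not computed for anti-PD1 in these settings. Against vehicle, anti-PD1 had 12% of genes past 2-fold higher and 9.33% past 2-fold lower, and the combination against IACS-70654 had 3.92% and 1.52%. The members of the first pair numbered 17 and 24, those of the second 46 and 41.

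The Cd209a cells, at 6, 19, 7 and 23 cells, allowed a look at 1 class across libraries. Over 932 genes with at least 50 UMIs, 22% had both libraries with IACS-70654 above both others and 24.8% had both below. MHC class I stood above with 4 of 8 genes, namely H2-K1, H2-D1, B2m and the peptide-loading chaperone Pdia3, and below with 1, Psmb8. H2-K1 was at 661, 1947, 1346 and 1837 CPM in Cd209a cells, with log2 ratios of 1.56 (0.86 to 2.34) and 0.45 (0.0028 to 0.92). H2-D1 was at 2718, 4967, 4516 and 4952 CPM and B2m at 1469, 2361, 2132 and 2434 CPM. Psmb8 was at 918, 649, 1122 and 623 CPM. In point values the heavy chains were thus higher and Psmb8 lower in Cd209a cells, which are themselves a part of the members. No ratio intervals are given for H2-D1, B2m and Psmb8 in this class.

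Klf4 was at 73.5, 670.1, 449 and 694 CPM in Cd209a cells, with log2 ratios of 3.19 (1.28 to 6.27) and 0.63 (-0.14 to 1.49), and Cebpb was at 294, 883, 701 and 922 CPM, with log2 ratios of 1.59 (0.54 to 2.85) and 0.39 (-0.23 to 1.07). Of 7 chemokine and cytokine genes, 4 (Ccl17, Cxcl16, Ccl5 and Ccl4) had both libraries with IACS-70654 above and 1 (Il1b) had both below. The shares over all genes measured in this class were 22% and 24.8%. Ccl17 had 0, 5, 1 and 116 UMIs, so that nearly all came from the combination library. Ccl4 was at 110.2, 1287, 112 and 363 CPM and Cxcl16 at 184, 319, 196 and 461 CPM. Il1b was at 2755, 2649, 7320.1 and 2648 CPM, and the anti-PD1 library stood highest. Of 4 interferon genes, 3 (Ifi44, Isg15 and Irf7) had both below. H2-Aa was at 10175, 10403, 11724 and 11631 CPM, and the vehicle and IACS-70654 libraries differed by a log2 ratio of 0.032 (-0.16 to 0.23). Mgl2 was at 588, 787, 2132 and 798 CPM, highest in the anti-PD1 library and lowest in the vehicle library.

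**Figure D5:**
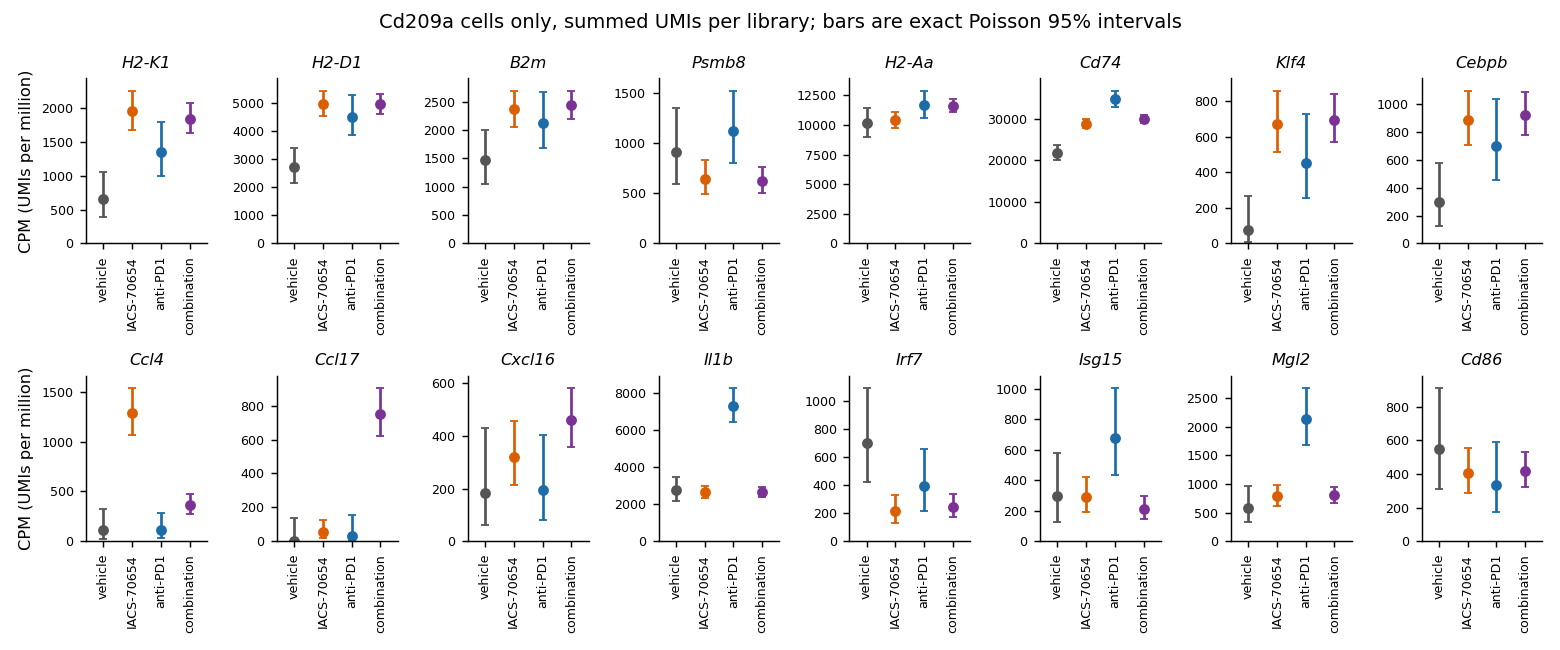
Level of 16 genes in the summed Cd209a cells of each library (y axes, CPM), with exact 95% Poisson intervals as bars that cover counting error only, from 6, 19, 7 and 23 cells. H2-K1, H2-D1, B2m, Klf4, Cebpb and Ccl4 are higher, and Psmb8 lower, in their point values in both libraries with IACS-70654 than in the vehicle and anti-PD1 libraries.

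Markers of other cells were present in members and moved with some of these results. The 8 neutrophil markers summed to 724, 1112, 1663 and 2680.2 CPM, from 63, 278, 203 and 763 UMIs. Lcn2, an iron-scavenging protein, had 7, 266, 93 and 336 of these, of which 244 and 272 in the IACS-70654 and combination libraries were in 1 cell each. G0s2 had 45, 1, 34 and 38 UMIs and S100a9 6, 4, 47 and 228. The 7 tumor epithelial markers summed to 57.5, 488, 959 and 945 CPM and were at 0 in all cDC1-like cells. T and NK markers summed to 264, 64.0, 287 and 28.1 CPM, higher in both libraries without IACS-70654, which held the 8 T cell receptor members. B cell markers summed to 322, 268, 98.3 and 158 CPM, of which pDC-like cells held 25 of 28, 61 of 67, 7 of 12 and 40 of 45 UMIs. Igkc had 23, 39, 4 and 13 UMIs in pDC-like cells. Monocyte markers summed to 2392, 2659, 1769.8 and 2199 CPM and macrophage markers to 1702, 1432, 1204 and 1714 CPM, and neither had the libraries with IACS-70654 apart from the others. Monocyte markers were lower in both libraries with anti-PD1 than in both without it. The part of these other transcripts in the treatment differences was not tested beyond leaving out the marked members.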

How the data were processed

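Single cells of the 4 tumor libraries were barcoded with 10x Genomics 3′ v3.1 chemistry and CellPlex sample tags. The authors deposited raw UMI counts per gene and cell, made with Cell Ranger against mm10 per the submitters' processing notes (the tumor file headers name cellranger 7.1.0), which also name Seurat. CellPlex removes doublets between samples only. No doublet caller was run, and an alternative leaves out members with at least 10 UMIs of S100a8 and S100a9 or 3 UMIs of tumor epithelial markers. The authors lowered the confidence asked of tag assignment in the tumor libraries to keep more cells.

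Counts were read as deposited, cells were kept at 201 to 5999 genes and at most 10% mitochondrial UMIs, and the UMIs of chosen cells were summed per library. Sums were compared with edgeR 4.0.16 (quasi-likelihood test, Benjamini-Hochberg adjustment over all genes tested, library as block, R 4.3.3, limma 3.58.1), after a test on simulated data. The 13 genes of the rule were not tested. DESeq2 1.42.0 was an alternative. Sums of subsets were used from 4 cells upwards, since the planned minimum of 10 cells leaves no residual degrees of freedom. Levels, exact intervals and shares were computed in Python 3.11.15 with NumPy 2.4.6, SciPy 1.17.1 and pandas 2.3.3, and plotted with matplotlib 3.10.9. Genes needed at least 50 UMIs over the members for a ratio between treatments. In medians over a list, 0.5 UMI stood for 0. Of 24 interferon response genes 23 were found.

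Every gene of the 18 lists could be named. Beyond them, the genes named were the 10 called genes with the largest log2 difference in each direction of each edgeR comparison, the 10 in each direction with the largest ratio for IACS-70654 and the 5 for anti-PD1, leaving out rule genes, mitochondrial and ribosomal genes and unnamed gene models, and a selection of these is printed (some genes are not reported here). The members and lists were chosen with earlier results of these data known, and the pDC-like class, the T cell receptor class (Cd3d, Trac or Trbc2 with Cd74 under 10 UMIs) and the split of Ccr7 cells by Cd74 were set after seeing the data. The p-values measure the spread of a difference over 4 libraries that had different treatments. Alternatives were another threshold of the rule (2 or 4 UMIs), thinning to 3000 UMIs per cell, other filters and normalizations, leaving out each library, and leaving out classes.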

Additional observations from a re-analysis of the deposited data

Results flagged for a closer look

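Several results in members had opposite signs for IACS-70654 against vehicle and for the combination against anti-PD1, each with an exact interval away from 0. Each comparison set 1 library against 1 library, so each sign is that of a single ratio. The difference between the comparisons was not tested. The intervals cover counting error only.

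Among summed lists, the mature migratory program had log2 ratios of 0.48 and -1.37, the interferon response list 0.32 and -0.25, and the chemokine and cytokine list 0.98 and -0.70, in that order of comparisons. The list medians were -0.23 and -0.95 for the mature program, 0.56 and -0.34 for interferon response and 1.95 and 0.29 for chemokines and cytokines, so the opposite signs of the sums were shared by the medians of the interferon list only. In checks chosen after seeing the data, the mature sum without Ccl5 had -0.037 and -0.94, and the chemokine sum without Ccl5 had 0.53 and -0.10 (-0.25 to 0.043). The 6 T cell receptor members of the anti-PD1 library held 114 of its 401 interferon UMIs, and without such members the interferon sum had 0.28 and -0.12 (-0.32 to 0.076). Without the cell with most UMIs of the list in each library, the sums had 0.29 and -1.29 (mature), 0.22 (-0.046 to 0.50) and -0.39 (interferon) and 0.80 and -0.41 (chemokines). Ccl5, which belongs to both the mature and the chemokine lists, had log2 ratios of 2.62 and -2.11. Il4i1, an oxidase of aromatic amino acids, had 1.28 and -4.22. Ccl3, a chemokine of myeloid cells, had 2.72 and -3.54, and Rsad2, an antiviral interferon-induced enzyme, had 2.94 and -1.43. Krt18, an epithelial keratin, had 3.38 and -0.71. In these the IACS-70654 library was above vehicle and the combination was below anti-PD1.

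The opposite order held for other genes. Cadm1, an adhesion molecule of cDC1, had log2 ratios of -0.96 and 1.36, and Tbc1d4, a Rab regulator, had -0.66 and 2.53. Cxcl9, a ligand of CXCR3, had -2.85 and 1.92. Apoe had -0.59 and 0.45, and S100a9, a neutrophil protein, had -2.11 and 1.06. Some of these rested on 1 cell: 51 of the 62 Cxcl9 UMIs of the combination were in 1 cell. As a check chosen after seeing the data, each gene was recomputed without the cell that held most of its UMIs in each library. Both intervals then stayed away from 0 for Ccl5 (2.90 and -2.35) and Il4i1 (3.22 and -4.73), and at least 1 interval reached 0 for the other 8 genes named here.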

How the results depend on the processing

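No paired analysis was possible because each tumor treatment had 1 library, and the replicate numbers in the labels belong to bone marrow libraries that were not used here. The share of members kept within counting error in 22 of 28 settings. It was 1.65% (IACS-70654) and 1.20% (combination) at 2 UMIs or more, 0.731% (anti-PD1) and 0.553% (combination) at 4 UMIs or more, and 0.656% (IACS-70654) and 0.706% (anti-PD1) after thinning to 3000 UMIs, where the Xcr1/Clec9a share of the IACS-70654 members was 3.70%. List medians stayed close to the main value in 58 of 94 checks, and the largest move was that of the pDC list at 4 rule UMIs. The main pDC medians were 2.02 and 1.81. The only pDC-like member of the vehicle library and that of the anti-PD1 library each held exactly 3 rule UMIs. Both fell out at 4 rule UMIs, where the pDC medians rested on 3 genes. For IACS-70654 against vehicle, the MHC class II median was 0.079 at 20 UMIs per gene, 0.090 with TMM, 0.22 without marked members, 0.12 in Cd209a cells and 0.082 without pDC-like and T cell receptor members. MHC class I was 0.024 at 20 UMIs and 0.63 in Cd209a cells. The summed cDC2 program was at 1817, 3379, 2933 and 3147 CPM in members, with main medians of 0.92 and 0.00047 for the 2 comparisons. For IACS-70654 against vehicle its median was 0.65 at 20 UMIs, 0.42 in Cd209a cells and 1.25 at 4 rule UMIs. The chemokine median was 1.39, 1.44 and 1.38 without marked members, in Cd209a cells and at 4 rule UMIs. At 4 rule UMIs the mature median was -0.0082 and the pDC median 3.81. Without pDC-like and T cell receptor members the cDC1 median was -1.54 and the interferon median 0.11. For the combination against anti-PD1, the MHC class II median was 0.38 with TMM, 0.42 without marked members, -0.32 in Cd209a cells and 0.53 at 4 rule UMIs, and MHC class I was -0.30, 0.065 and -0.21 in the last 3 of these. Without marked members the interferon median was -0.66, mature -0.73, pDC 2.44 and chemokines 0.91. Without pDC-like and T cell receptor members the interferon median was 0.056, mature -1.16 and cDC1 -1.03. At 20 UMIs cDC1 was -0.92 and chemokines -0.0067. Chemokines were 1.00 in Cd209a cells and 0.12 at 4 rule UMIs, and pDC was 3.37 at 4 rule UMIs. With TMM the all-gene median of the log2 ratio was 0.17 (0.061 without it) and 0.20 (0.13 without it), and ratios are to be read against that shift. Genes called against macrophages were 1255 without a filter, against other cells 629 in DESeq2 and 479 without the block, for Xcr1/Clec9a against Cd209a cells 82 without a filter and 0 without pDC-like and T cell receptor members, and for Ccr7 cells 196 and 0. Leaving out 1 library gave 507 to 922, 765 to 979, 9 to 30 and 18 to 53 genes in these 4 comparisons, lowest each time without the IACS-70654 library. Of 2511 checks of single called genes, 2185 kept their call, 319 lost it and 7 turned. Without pDC-like and T cell receptor members Siglech (-2.41), Ccr9 (-0.043), Cox6a2 (-1.80), Klk1 (-9.48), Igkc (-12.11) and Ly6c2 (-0.33) turned against other cells, and Bst2 (-0.94) between Xcr1/Clec9a and Cd209a cells. The turn of Bst2 rested on that 1 vehicle sum. Ratios between treatments turned for Wfdc2 (-1.37 and -1.98) and Tm4sf1 (-0.40) without marked members, for Tm4sf1 (-1.89), Epsti1 (1.11), Wdfy4 (0.28 and 0.39) and Nostrin (0.44) in Cd209a cells, for Gramd3 (0.50) and S100a9 (-2.38) without pDC-like and T cell receptor members, and for Epb41l4a (2.96) at 4 rule UMIs. The turns in Cd209a cells rested on few UMIs, such as 2, 9, 3 and 18 for Wdfy4. The cause was not tested for any of these beyond the construction of each setting. A minimum of 10 cells per subset gave no fit, and lists with too few measured genes left got no median. With 17 to 46 members per library, depth limits genes under 50 UMIs.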
